A study of Manihot esculenta with 9 samples.

Results

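WRKY transcription factors were followed in cassava (Manihot esculenta) leaves. WRKY proteins carry a domain named after its conserved amino acids, followed by a zinc finger, and bind promoter elements called W-boxes. The family is sorted into group I, with a pair of such domains, groups IIa to IIe, with a single domain, and group III, with a single domain and another type of zinc finger. In Arabidopsis, many members act downstream of pathogen perception, where mitogen-activated protein (MAP) kinases phosphorylate some of them and small VQ-motif proteins bind others. Other members act in leaf senescence, phosphate supply, secondary walls and trichomes. Roles given below are those known for the Arabidopsis gene that the cassava gene matches best, and none was tested in cassava.

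The members were all genes whose description in the deposited table contains the word WRKY. Of the 33033 genes in the table, 85 members passed the filter on low counts and were tested and 16 did not pass it; together they have 44 different best Arabidopsis matches. Groups were assigned from the name of the Arabidopsis match. Group I held 17 members, IIa 7, IIb 15, IIc 26, IId 10, IIe 12 and III 13. The remaining gene, Manes.16G129200, is described as a WRKY factor but matches AT4G31805, which in Arabidopsis encodes a cell-polarity protein, and was left without a group. Members lay on 18 chromosomes, 18 of them on chromosome 1, and 3 lay on unplaced scaffolds. Reads were found for 91 to 95 members per library. The 16 untested members had 0 to 60 reads over all 9 libraries.

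Libraries came from 3 groups of 3: wild type (WT) and 2 transgenic lines, HOE1 and HOE8, which overexpress the linker histone gene MeH1.2. All plants were 2-month-old seedlings grown from stem cuttings on MS medium in sterile bottles, with no treatment. Each transgenic group is 1 line, so an effect of the histone and an effect of that insertion cannot be told apart within a group. Which promoter drives the transgene is not given in the sources used here. Labels do not say whether libraries came from separate plants, so p-values measure only the spread between libraries, which may be technical.

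Library totals ran from 13272047 to 16378389 counted reads, and 3 reads were worth 0.176 to 0.233 CPM (reads scaled to a common library total after TMM normalization). The overexpressed gene, Manes.08G136300, measured 149 ± 7.95 CPM in WT, 4617 ± 113 in HOE1 and 3345 ± 261 in HOE8 (SD, n = 3). HOE8 library 1 stood apart from the other libraries of its line over all genes, with median chi-square values of 1.83 and 2.03 per gene against 0.768 between libraries 2 and 3 and 0.455 for sampling noise. Over the WRKY genes these values were 0.838, 1.49 and 0.77. Of 14 leaf marker genes, which encode light-harvesting, Rubisco, rubisco activase and oxygen-evolving proteins, all had reads. Their summed level was 3586 to 3794 CPM in WT, 8938 to 9346 in HOE1 and 28890 to 32390 in HOE8. The rubisco activase match Manes.10G027600 alone accounted for 606.3, 2047 and 14760 CPM of the means in the same order. The only root marker found, a match of EXPA7, reached at most 0.151 CPM in a library.

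The WRKY genes together took fewer reads in both lines. They held 0.305 to 0.306% of the counted reads in the WT libraries, 0.266 to 0.269% in HOE1 and 0.129 to 0.136% in HOE8. Their summed level was 2929 ± 3 CPM in WT, 2715 ± 16.1 in HOE1 and 1377 ± 43.6 in HOE8 (SD, n = 3), with no overlap between the groups. In bulk RNA, fewer cells that express a gene and less RNA per cell cannot be told apart. By group of the family, group I summed to 1047 ± 27.6 CPM in WT, 1121 ± 3.51 in HOE1 and 516.4 ± 23.8 in HOE8. Group IIb summed to 651.6 ± 5.88, 454.7 ± 6.79 and 204.8 ± 26.5 CPM in the same order, and group IIc to 392.3 ± 9.98, 258.6 ± 5.39 and 170.0 ± 4.41 CPM. These groups were low in HOE8, and groups IIb and IIc were already below WT in HOE1. Group IIa went from 90.1 ± 2.86 CPM in WT to 147.7 ± 3.49 in HOE1 and 29.96 ± 1.56 in HOE8. Group III went from 125.6 CPM in WT to 217.9 in HOE1 and 63.67 in HOE8. Both groups thus stood highest in HOE1 and lowest in HOE8. Group IId summed to 352.6 CPM in WT, 303.4 in HOE1 and 197.3 in HOE8, and group IIe to 265.1, 203.5 and 191.9 CPM.

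**Figure D1:**
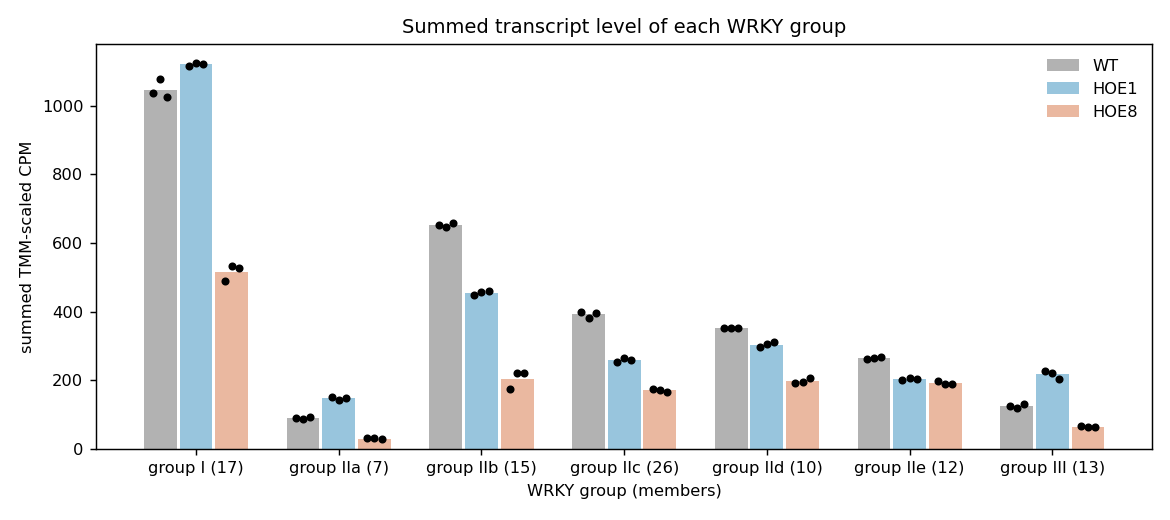
Summed TMM-scaled CPM of the members of each WRKY group (vertical axis, linear from 0; the number of members is in brackets) in WT, HOE1 and HOE8. Bars are means of 3 libraries and points are single libraries. Groups IIa and III stand highest in HOE1 (147.7 and 217.9 CPM) and lowest in HOE8 (29.96 and 63.67 CPM).

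Levels per gene length, as the deposited FPKM values give them, put a match of WRKY33 first. WRKY33 controls the response to necrotrophic fungi in Arabidopsis. The gene, Manes.18G098700 (chromosome 18, 8550960 to 8553508), measured 156 ± 4.48 FPKM in WT, 158.2 ± 4.42 in HOE1 and 53.4 ± 3.84 in HOE8 and ranked first among the members in every group. Next by the mean over all libraries came a WRKY6 match, Manes.16G004100, and a WRKY65 match, Manes.17G058900, with 113.2 and 86.16 FPKM in WT. A WRKY11 match, Manes.16G134800, and a WRKY3 match, Manes.05G106900, complete the 5 highest by that mean, with 66.72 and 55.78 FPKM in WT, where they ranked only 6 and 8. Ranks 4 and 5 in WT belonged to the other WRKY3 match, Manes.01G100400, and the WRKY75 match Manes.06G121200, with 67.07 and 67.01 FPKM. The rank of some genes moved far between groups. Manes.16G004100 went from rank 2 in WT to 5 in HOE1 and 12 in HOE8. Manes.01G100400 went from rank 4 to 9 and then 31, and Manes.06G121200 from rank 5 to 23 and then 35. The WRKY35 match Manes.05G004300 went from rank 12 to 22 and then 2. Its level was 45.04 FPKM in WT, 25.61 in HOE1 and 40.4 in HOE8, so its higher rank in HOE8 was not a rise over WT. At 10 FPKM or more stood 44 members in WT, 41 in HOE1 and 20 in HOE8, while 25, 28 and 30 were under 1 FPKM.

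HOE1 leaves differed from WT in both directions. The members of groups IIa and III, which include matches of the defence regulators WRKY18, WRKY40, WRKY53 and WRKY70, were mostly higher, and those of groups IIb and IIc, which include matches of WRKY6, WRKY23, WRKY71 and WRKY75, mostly lower. Of the 85 tested members, 68 (80%) passed an edgeR adjusted p of 0.05 in either direction, against 64.4% of all genes tested. Of these, 31 were higher (36.5%) and 37 lower (43.5%). Over all 23434 genes tested, 31.7% were higher and 32.7% lower. At 2-fold or more, 13 members were higher (15.3%) and 17 lower (20%), against 8.5% and 10.8% of all genes. The libraries of the 2 groups did not overlap for 34 members that were higher (40%) and 38 that were lower (44.7%). Over all genes these shares were 36.3% and 37%. The median log2 fold change was -0.01 over the members and -0.005 over all genes.

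Within group IIa, 6 of 7 members rose and 1 fell, with a median log2 fold change of 1.20. In group III, 7 of 10 tested members rose and 1 fell (median 1.18). In group IIb, 2 of 11 rose and 8 fell (median -1.02), and in group IIc 4 of 21 rose and 13 fell (median -0.58). Groups I, IId and IIe were divided, with 5 higher and 5 lower of 16, 3 and 5 of 10, and 3 and 4 of 9. The medians were thus above 0 in groups IIa and III and below 0 in IIb and IIc.

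**Figure D2:**
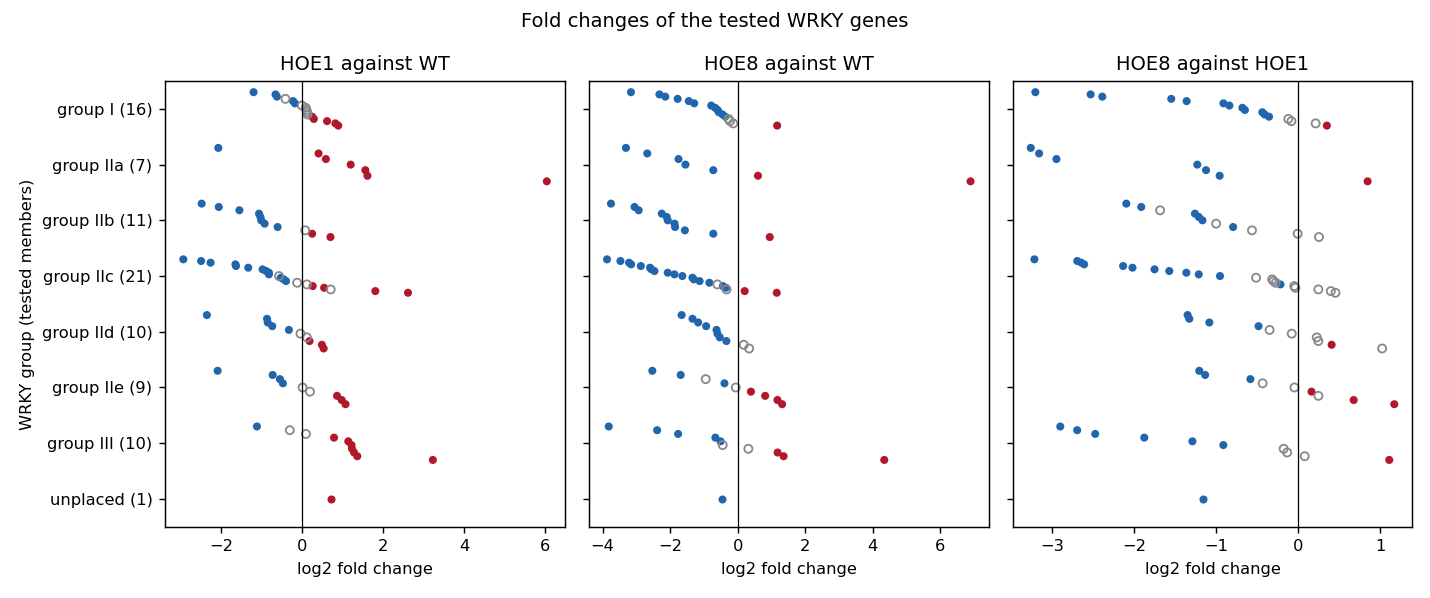
Log2 fold change (horizontal axes) of each of the 85 tested WRKY genes by group (rows, tested members in brackets) for HOE1 against WT, HOE8 against WT and HOE8 against HOE1. Filled points passed an edgeR adjusted p of 0.05 (red higher, blue lower) and open points did not; the 3 axes differ in range. In HOE8 against WT, 61 members are lower and 13 higher.

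WRKY40 and its close relative WRKY18 restrain basal immunity in Arabidopsis and are induced by pathogens. Of 5 cassava matches of WRKY40, 4 rose in HOE1 and 1 fell. Manes.03G009500 (chromosome 3, 755267 to 756863) measured 14.8, 17.8 and 17.96 CPM in WT libraries, 50.1, 50.6 and 53.9 in HOE1, and 6.66, 5.12 and 5.5 in HOE8. All HOE1 libraries stood above WT and all HOE8 libraries below it (log2 fold change 1.61 ± 0.10, edgeR adjusted p = 1.3e-07 in HOE1; -1.55 ± 0.12, edgeR adjusted p = 3e-07 in HOE8). The same order of the groups held for Manes.16G128900, with 23.9, 20.1 and 21.5 CPM in WT libraries, 52.6, 49.8 and 47.7 in HOE1, and 7.34, 6.59 and 5.5 in HOE8. The test gave 1.20 ± 0.09 for HOE1 (edgeR adjusted p = 1e-06) and -1.75 ± 0.11 for HOE8 (edgeR adjusted p = 7.4e-08) on the log2 scale. Manes.11G066500 measured 11.8 ± 0.24 CPM in WT, 17.7 ± 0.995 in HOE1 and 1.83 ± 0.627 in HOE8 (log2 fold change 0.58 and -2.68, both past the threshold). The remaining matches of WRKY40 behaved otherwise. Manes.16G129000, which lies 2351 bases from Manes.16G128900, measured 2.71 ± 0.21 CPM in WT, 8.02 ± 0.997 in HOE1 and 4.12 ± 0.545 in HOE8 and was higher in both lines, by 1.56 and 0.60 on the log2 scale. Manes.04G102600 was lower in both lines, with 28, 26.2 and 29.8 CPM in WT libraries, 7.56, 6.1 and 6.27 in HOE1, and 2.5, 3.02 and 2.93 in HOE8 (log2 fold change -2.08 and -3.31).

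The 2 matches of WRKY18 were both higher in HOE1. Manes.03G009300 measured 8.94 ± 0.0343 CPM in WT, 11.8 ± 0.781 in HOE1 and 5.42 ± 0.832 in HOE8. It rose in HOE1 and fell in HOE8 (log2 fold change 0.40 and -0.72). The other, Manes.01G045700 (chromosome 1, 8113996 to 8114622), was almost unread in WT. It had 1 read over the 3 WT libraries, 88 over HOE1 and 140 over HOE8. By reads this is 92.3-fold more in HOE1 than in WT (95% exact counting interval 16.1 to 3690) and 166-fold more in HOE8 (29.3 to 6590); the intervals cover counting error only. Its fitted log2 fold changes of 6.05 and 6.89 depend on the prior count, and without WT library 3, which holds the single read, they became 7.82 and 8.66.

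WRKY53, a positive regulator of leaf senescence in Arabidopsis, has 3 cassava matches, of which 2 rose and 1 fell in HOE1 and all 3 fell in HOE8. Manes.05G030900 measured 38.3, 39 and 42.3 CPM in WT libraries, 93.5, 91.8 and 77.9 in HOE1, and 11.7, 12.4 and 11.1 in HOE8. HOE1 stood above WT and HOE8 below it with no overlap (log2 fold change 1.14 ± 0.08, edgeR adjusted p = 3.8e-07, and -1.76 ± 0.09, edgeR adjusted p = 1e-08). Manes.01G253400 kept that order, with 21.5 ± 1.32 CPM in WT, 49.9 ± 2.04 in HOE1 and 13.6 ± 0.911 in HOE8. Manes.01G047200 instead stepped down, with 16, 15.3 and 12.7 CPM in WT libraries, 7.98, 6.03 and 6.21 in HOE1, and 1.51, 0.543 and 1.03 in HOE8 (log2 fold change -1.12 in HOE1 and -3.82 in HOE8).

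WRKY70 in Arabidopsis promotes salicylic acid responses over those to jasmonate. All 5 cassava matches rose in HOE1, and in HOE8 3 rose, 1 fell and 1 did not pass the test. Manes.08G170600 measured 5.21, 4.92 and 6.22 CPM in WT libraries, 15, 12.9 and 14.2 in HOE1, and 14.1, 11.1 and 12 in HOE8. All libraries of both lines stood above WT (log2 fold change 1.36 ± 0.13, edgeR adjusted p = 4.4e-06 in HOE1; 1.18 ± 0.13, edgeR adjusted p = 9.7e-06 in HOE8), and the lines overlapped (HOE8 against HOE1 -0.18 ± 0.12, edgeR adjusted p = 0.21). Manes.07G142400 was also raised in both, with 2.09 ± 0.288 CPM in WT, 5.08 ± 0.746 in HOE1 and 5.36 ± 0.27 in HOE8. Manes.09G016300 measured 2.86 ± 0.619 CPM in WT, 6.71 ± 1.48 in HOE1 and 3.55 ± 0.653 in HOE8 and passed the test only in HOE1 (1.23, against 0.32 in HOE8), and HOE8 stood below HOE1, with a log2 fold change of -0.91 ± 0.22 (edgeR adjusted p = 0.0032). Manes.10G002200 was higher in HOE1 (0.79) and lower in HOE8 (-0.51). The lowest of the 5, Manes.09G123700, had 4 reads over the WT libraries, and its log2 fold changes of 3.23 and 4.34 became 2.63 and 3.74 without WT library 3, which had none.

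WRKY50 and WRKY51 repress jasmonate responses in Arabidopsis. Manes.03G051300, a match of WRKY50, measured 1.78, 1.49 and 1.23 CPM in WT libraries, 5.58, 4.72 and 5.43 in HOE1, and 0.908, 0.698 and 0.88 in HOE8, which put HOE1 above and HOE8 below WT (log2 fold change 1.81 ± 0.20, edgeR adjusted p = 5e-06 in HOE1; -0.84 ± 0.31, edgeR adjusted p = 0.0084 in HOE8). Another match of WRKY50, Manes.16G083400, and the WRKY51 match Manes.12G143500 are named here after their values were seen. They measured 0.234 ± 0.0402 CPM in WT, 1.49 ± 0.498 in HOE1 and 0.152 ± 0.0786 in HOE8, and 16.1 ± 1.17 CPM in WT, 23.4 ± 0.916 in HOE1 and 3.84 ± 0.667 in HOE8. Both were higher in HOE1, and in HOE8 Manes.12G143500 fell by 2.07 on the log2 scale while Manes.16G083400 did not pass the test (-0.60, edgeR adjusted p = 0.43).

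**Figure D3:**
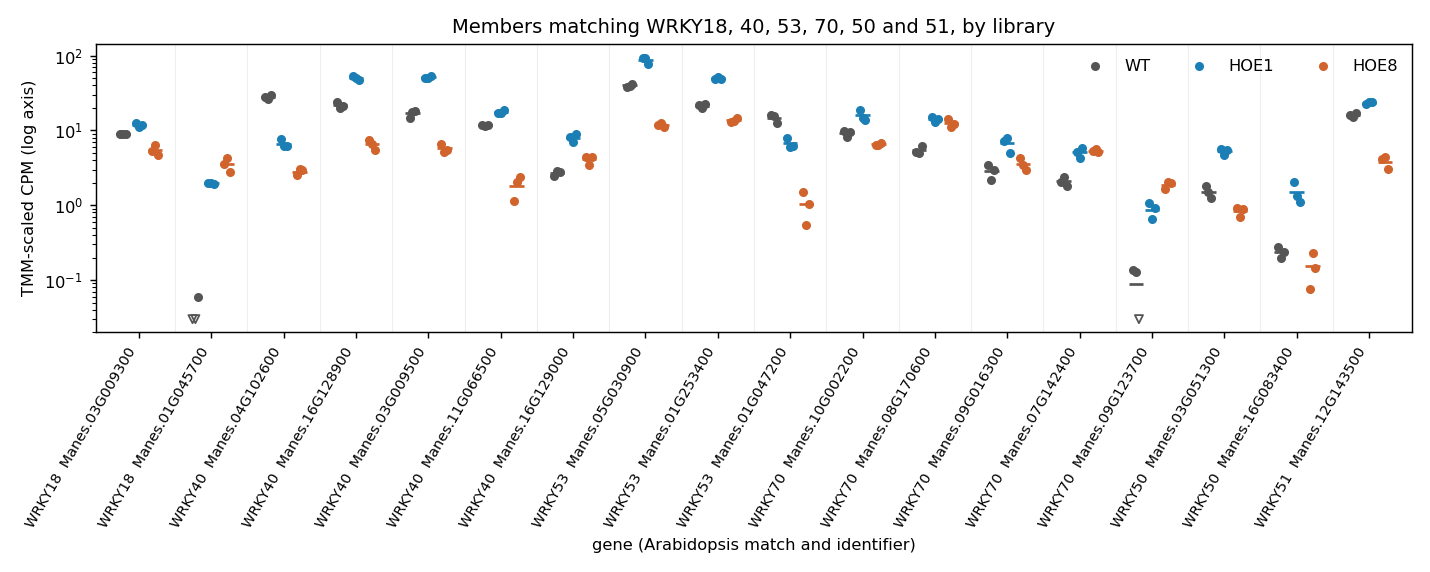
TMM-scaled CPM (log axis) of cassava genes that match WRKY18, WRKY40, WRKY53, WRKY70, WRKY50 and WRKY51, one point per library, with bars at group means; open triangles at the bottom edge are libraries with 0 reads. For Manes.03G009500 the HOE1 libraries lie between 50.1 and 53.9 CPM, the WT libraries between 14.8 and 17.96 and the HOE8 libraries between 5.12 and 6.66.

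Among members averaging at least 1 CPM, those that fell furthest in HOE1 were matches of WRKY71, WRKY28, WRKY42, WRKY21, WRKY23, WRKY40 and WRKY75. WRKY71 promotes shoot branching and flowering in Arabidopsis. Its match, Manes.01G128000 (chromosome 1, 24403086 to 24405047), measured 20.3, 21.8 and 20.7 CPM in WT libraries, 2.26, 3.08 and 2.78 in HOE1, and 2.65, 2.48 and 1.61 in HOE8. Both lines stood far below WT and overlapped each other (log2 fold change -2.94 ± 0.16, edgeR adjusted p = 4.2e-08 in HOE1; -3.22 ± 0.17, edgeR adjusted p = 1.1e-08 in HOE8). WRKY28 activates the salicylic acid synthesis gene ICS1 in Arabidopsis. Of its matches, Manes.17G066200 measured 6.65, 6.47 and 7.04 CPM in WT libraries, 0.989, 1.64 and 0.905 in HOE1, and 0.454, 0.465 and 0.44 in HOE8 and stepped down from WT to HOE1 and on to HOE8 (log2 fold change -2.50 and -3.87). Manes.15G118300 measured 6.13 ± 0.753 CPM in WT, 4.44 ± 0.683 in HOE1 and 0.682 ± 0.149 in HOE8. Its log2 fold change was -3.15 ± 0.29 in HOE8. That in HOE1 (-0.46) no longer passed the test with DESeq2, without WT library 1 (-0.36) or without HOE1 library 1 (-0.34). The remaining WRKY28 match, Manes.02G085100, did not pass the test in HOE1 (log2 fold change 0.11, edgeR adjusted p = 0.64) and fell in HOE8 (-1.64).

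WRKY6 acts in senescence and represses the phosphate exporter gene PHO1 in Arabidopsis, and WRKY42 also represses PHO1. All 4 matches of WRKY6 fell in both lines. The most abundant, Manes.16G004100 (chromosome 16, 538392 to 540954), measured 222, 223 and 229.6 CPM in WT libraries, 109, 111 and 109.9 in HOE1, and 40.01, 49.4 and 52.5 in HOE8. Levels stepped down from WT to HOE1 and to HOE8 with no overlap (log2 fold change -1.03 ± 0.08, edgeR adjusted p = 1.2e-06 in HOE1; -2.25 ± 0.08, edgeR adjusted p = 1.4e-09 in HOE8). The other 3 are named here after their values were seen. Their log2 fold changes in HOE1 and HOE8 were -0.61 and -1.87 for Manes.12G072800, -0.93 and -2.10 for Manes.13G068100, and -1.56 and -1.56 for Manes.17G029000. For Manes.17G029000 the lines overlapped (HOE8 against HOE1 -0.01 ± 0.13, edgeR adjusted p = 0.96). The WRKY42 match Manes.03G132200 measured 7.17 ± 0.264 CPM in WT, 1.27 ± 0.196 in HOE1 and 0.858 ± 0.318 in HOE8 (log2 fold change -2.49 ± 0.21 in HOE1 and -3.05 ± 0.26 in HOE8). The other WRKY42 match, Manes.15G068800, also fell in both lines (-2.07 and -3.75).

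WRKY75 regulates phosphate starvation responses and root hairs in Arabidopsis and promotes leaf senescence. All 4 tested matches of 5 fell in HOE1, in HOE8, and again in HOE8 against HOE1. Manes.06G121200 (chromosome 6, 23001636 to 23002560) measured 78.7, 70.8 and 79.2 CPM in WT libraries, 27.7, 29.5 and 33.4 in HOE1, and 7.56, 5.97 and 7.04 in HOE8, a descending series without overlap (log2 fold change -1.34 ± 0.09, edgeR adjusted p = 2.8e-07 in HOE1; -3.47 ± 0.10, edgeR adjusted p = 1.6e-10 in HOE8). Manes.17G102000 measured 21.6 ± 1.27 CPM in WT, 6.85 ± 1.27 in HOE1 and 2.95 ± 0.468 in HOE8, and Manes.12G008700 measured 24.8 ± 0.543 CPM in WT, 13.3 ± 0.772 in HOE1 and 4.48 ± 1.63 in HOE8. Both followed the same descent, with log2 fold changes of -1.65 and -0.89 in HOE1 and -2.87 and -2.47 in HOE8. Manes.13G009100 measured 10.51 ± 1.71 CPM in WT, 7.3 ± 1.31 in HOE1 and 1.79 ± 0.348 in HOE8; its change in HOE1 (-0.53) no longer passed without WT library 3 or HOE1 library 3 (-0.39 in each), while that in HOE8 was -2.55 ± 0.22. The match that was not tested, Manes.15G162600, had 33 reads over WT, 14 over HOE1 and 0 over HOE8, which is at least 9.29-fold lower in HOE8 than in WT when 3 reads over the group are taken as the floor.

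WRKY23, which acts in auxin transport and embryo and root development in Arabidopsis, has 3 matches, all lower in both lines. Manes.05G013500 measured 20.8 ± 1.59 CPM in WT, 6.66 ± 1.6 in HOE1 and 3.44 ± 0.519 in HOE8. Manes.03G206400 measured 9.04 ± 0.707 CPM in WT, 1.88 ± 0.168 in HOE1 and 2.47 ± 0.237 in HOE8 and was lowest in HOE1 (log2 fold change -2.27 ± 0.17) rather than in HOE8 (-1.87 ± 0.16), though the lines did not differ past the threshold (edgeR adjusted p = 0.089). A WRKY21 match, Manes.01G077300, was lower in both lines at low levels, with 1.37, 1.81 and 2.7 CPM in WT libraries, 0.636, 0.328 and 0.194 in HOE1, and 0.605, 0.698 and 1.03 in HOE8. Its log2 fold change was -2.36 ± 0.46 in HOE1 and -1.34 ± 0.38 in HOE8, and the lines overlapped.

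**Figure D4:**
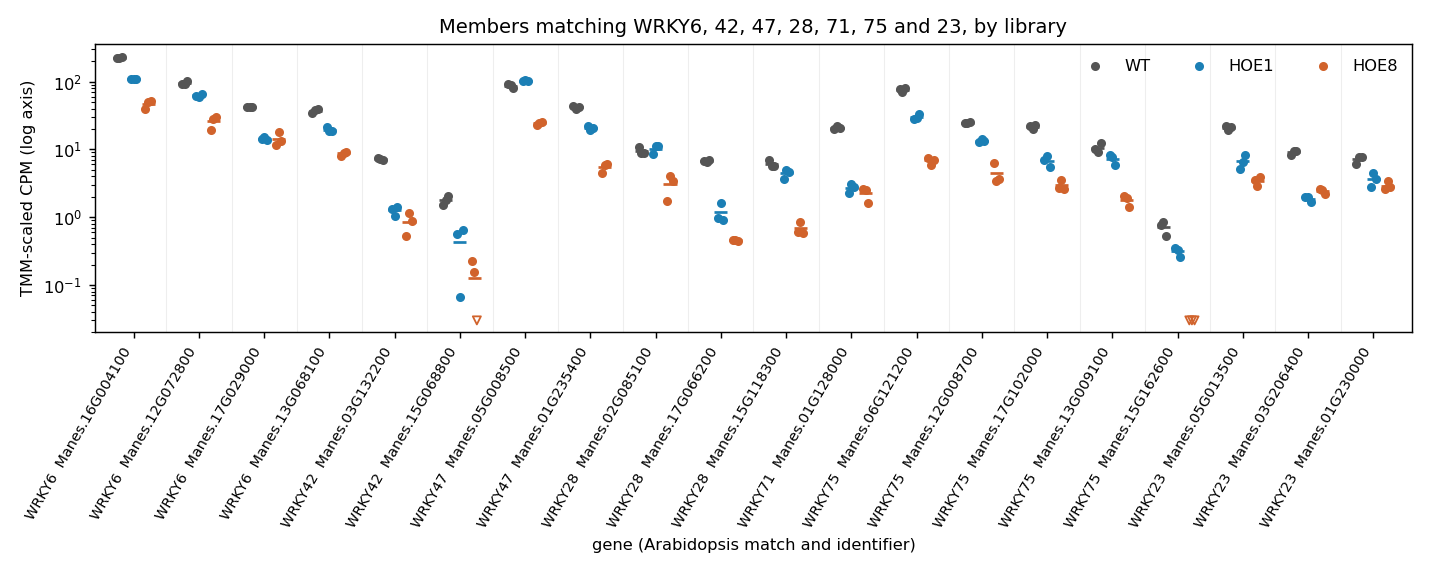
TMM-scaled CPM (log axis) of cassava genes that match WRKY6, WRKY42, WRKY47, WRKY28, WRKY71, WRKY75 and WRKY23, one point per library, with bars at group means; open triangles at the bottom edge are libraries with 0 reads. The matches shown were chosen after their values were seen, so their shared direction is not a result in itself. All but 2 matches, Manes.05G008500 and Manes.02G085100, have a lower mean in HOE1 than in WT. Every gene shown has its mean in HOE8 below WT.

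In HOE8 most tested members of the family fell. Of the 85 tested members, 74 (87.1%) passed the test in either direction, against 71.9% of all genes tested. Of these, 61 were lower than in WT (71.8%) and 13 higher (15.3%), against 38.2% and 33.7% of all genes tested. At 2-fold or more 41 were lower (48.2%) and 8 higher (9.41%), against 16.6% and 15.3% of all genes. Libraries did not overlap for 62 members that were lower (72.9%) and 13 that were higher (15.3%), against 39.4% and 34.3% of all genes. The median log2 fold change was -0.934 over the members and -0.046 over all genes. Without HOE8 library 1, the counts were again 61 lower and 13 higher.

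Every group but IIe had more members lower than higher in HOE8. In group I 12 of 16 fell, in IIa 5 of 7, in IIb 10 of 11, in IIc 17 of 21, in IId 8 of 10 and in III 5 of 10. In group IIe 4 of 9 rose and 3 fell. The medians ran from -2.07 in group IIb and -1.64 in IIc to -0.06 in IIe. The net loss of 1551.5 CPM from the summed level came largely from abundant genes: the 10 members with the largest loss account for 968.2 CPM, which is 62.4% of the net. These are sums of reads and not of levels per gene length. The WRKY33 match Manes.18G098700 gave 198.9 CPM of this, the WRKY6 match Manes.16G004100 177.4 and the WRKY3 match Manes.01G100400 136.1.

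All 3 matches of WRKY33 fell in HOE8. Manes.18G098700 measured 309.7, 325 and 308 CPM in WT libraries, 326, 344 and 341 in HOE1, and 106, 119.7 and 120.3 in HOE8. HOE1 lay just above WT, past the threshold only without HOE8 library 1 or with HOE8 left out of the fit (log2 fold change 0.10 ± 0.06, edgeR adjusted p = 0.15), and HOE8 stood far below both (-1.45 ± 0.06 against WT, edgeR adjusted p = 2.5e-09). Manes.09G112700 measured 61.8, 67.1 and 63.6 CPM in WT libraries, 115, 121 and 120.1 in HOE1, and 12.8, 12.1 and 13.7 in HOE8. It rose in HOE1 and fell in HOE8 (log2 fold change 0.89 ± 0.06, edgeR adjusted p = 2.3e-07, and -2.32 ± 0.07, edgeR adjusted p = 9.7e-11). Manes.02G189600 measured 103.2 ± 3.11 CPM in WT, 122 ± 5.03 in HOE1 and 23.3 ± 2.67 in HOE8. Its rise in HOE1 (0.25) no longer passed without HOE1 library 1 (0.21), and its log2 fold change in HOE8 was -2.14 ± 0.08.

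WRKY3 acts with WRKY4 in resistance to necrotrophs in Arabidopsis. Manes.01G100400 (chromosome 1, 22374615 to 22381501), a WRKY3 match, measured 153, 161 and 146 CPM in WT libraries, 99.99, 99.8 and 97.6 in HOE1, and 14.8, 17 and 19.6 in HOE8, a step down to HOE1 and a far larger one to HOE8 (log2 fold change -0.63 ± 0.08, edgeR adjusted p = 5e-05 in HOE1; -3.16 ± 0.09, edgeR adjusted p = 1.3e-10 in HOE8). The other WRKY3 match, Manes.05G106900, measured 105 ± 4.78 CPM in WT, 128 ± 1.47 in HOE1 and 81.3 ± 2.38 in HOE8 and moved little (0.29 and -0.37, both past the threshold). Of 2 WRKY4 matches, Manes.02G049700 rose in both lines, with 33.8, 36.3 and 37.1 CPM in WT libraries, 63.5, 60.4 and 65.4 in HOE1, and 81.7, 82.9 and 76.4 in HOE8; it overlaps the gene model Manes.02G049800, so reads of the pair may be mixed. Its log2 fold change was 0.82 ± 0.06 in HOE1 and 1.17 ± 0.06 in HOE8. The other WRKY4 match, Manes.01G031600, did not pass the test in HOE1 (0.12, edgeR adjusted p = 0.098) and fell in HOE8 (-0.56, edgeR adjusted p = 1.1e-05). The WRKY65 match Manes.17G058900 stepped down, with 106 ± 0.523 CPM in WT, 75.9 ± 1.5 in HOE1 and 32.8 ± 1.13 in HOE8 (log2 fold change -0.48 and -1.69). WRKY11 is a negative regulator of basal resistance in Arabidopsis. Its match Manes.16G134800 measured 66.72 ± 3.43 FPKM in WT, 71.36 ± 1.16 in HOE1 and 27.63 ± 1.09 in HOE8. Its log2 fold change in HOE8 was -1.17 ± 0.06, while its rise in HOE1 (0.18) no longer passed without WT library 3 (0.14).

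Besides WRKY18, WRKY70 and WRKY4 matches, the members higher in HOE8 by the most were matches of WRKY22, WRKY14, WRKY12 and WRKY61. WRKY22 acts downstream of MAP kinases in flagellin signalling in Arabidopsis. Manes.01G252400 measured 5.83, 6.86 and 4.7 CPM in WT libraries, 10.7, 13.7 and 12 in HOE1, and 14.2, 14.7 and 14.2 in HOE8. Both lines stood above WT (log2 fold change 1.07 ± 0.14, edgeR adjusted p = 6e-05 in HOE1; 1.32 ± 0.14, edgeR adjusted p = 7.6e-06 in HOE8). The second tested match of WRKY22, Manes.05G029500, also rose in both lines (0.86 and 0.81; named after its values were seen). The WRKY14 match Manes.06G051300 measured 3.91, 3.49 and 3.7 CPM in WT libraries, 3.39, 4.13 and 3.62 in HOE1, and 7.41, 8.61 and 9.1 in HOE8 and rose in HOE8, while HOE1 overlapped WT (1.18 ± 0.14, edgeR adjusted p = 1.1e-05; 0.01 ± 0.16, edgeR adjusted p = 0.97 in HOE1). The other WRKY14 match, Manes.14G126300, passed the test in neither line (0.19 and -0.95). The WRKY61 match Manes.06G095600 rose in both, with 7.11 ± 1.07 CPM in WT, 11.5 ± 0.311 in HOE1 and 13.7 ± 2.08 in HOE8. WRKY12 restrains secondary-wall formation in pith in Arabidopsis. Of its 2 matches, Manes.05G056100 measured 0.823, 0.453 and 0.998 CPM in WT libraries, 1.13, 1.9 and 0.711 in HOE1, and 1.06, 2.17 and 1.91 in HOE8. The log2 fold change in HOE8 was 1.16 ± 0.43, and it no longer passed without WT library 1 (1.20), WT library 2 (0.89), HOE8 library 2 (0.96) or HOE8 library 3 (1.07). The other WRKY12 match, Manes.01G273700, fell in both lines (-0.83 ± 0.28, edgeR adjusted p = 0.021, and -1.34 ± 0.31, edgeR adjusted p = 0.002).

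Other measures moved with HOE8. The leaf marker sum was higher there than in every WT library, as given above. Of 13 tested leaf markers, 11 rose (84.6%) and 1 fell (7.69%) in HOE8, against 7 (53.8%) and 2 (15.4%) in HOE1. Over all genes tested, 33.7% rose and 38.2% fell in HOE8, and 31.7% rose and 32.7% fell in HOE1. Of 10 tested xylem and secondary-wall markers of 17, 8 rose (80%) and 1 fell (10%) in HOE8, and 7 fell (70%) and 0 rose in HOE1. Their summed level was 40.47 to 41.32 CPM in WT, 23.02 to 25.21 in HOE1 and 68.9 to 73.2 in HOE8, and one match of XCP2, Manes.05G126900, had 0 reads. Of 9 tested phloem markers of 11, 5 rose (55.6%) and 2 fell (22.2%) in HOE8, and 1 rose (11.1%) and 3 fell (33.3%) in HOE1. Their sum ran from 310.1 to 327 CPM in WT, 233.1 to 245.6 in HOE1 and 132.8 to 136 in HOE8, and the abundant SUC2 match Manes.18G099400 accounted for 250.3, 168.8 and 52.77 CPM of the means. Clock genes also differed. The match of LHY, which peaks around dawn in Arabidopsis, measured 5.33 ± 0.498 CPM in WT, 8.62 ± 0.248 in HOE1 and 1252 ± 160 in HOE8, and the match of GI, which peaks late in the day, measured 480.4 ± 6.86 CPM in WT, 466 ± 5.25 in HOE1 and 1.05 ± 0.298 in HOE8. No collection time is given in the sources used here. The part of these marker and clock differences in the WRKY results was not tested.

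The direct comparison of the lines tests whether the effect against WT differs between them, since the WT libraries cancel. The test was passed by 57 of 85 members (67.1%), against 66.5% of all genes. HOE8 was below HOE1 for 50 of 85 tested members (58.8%) and above it for 7 (8.24%), against 33.8% and 32.7% of all genes. At 2-fold or more these counts were 36 (42.4%) and 2 (2.35%), against 12.7% and 13% of all genes. Libraries did not overlap for 53 members that were lower (62.4%) and 10 that were higher (11.8%), against 35.9% and 34.2% of all genes. The median log2 fold change was -0.84 over the members and -0.007 over all genes. Without HOE8 library 1, 48 members were lower and 9 higher.

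The 6 widest gaps between the lines were in genes that were higher in HOE1 than in WT. The log2 fold change of HOE8 against HOE1 was -3.26 ± 0.19 for the WRKY40 match Manes.11G066500 (edgeR adjusted p = 2.9e-08) and -3.21 ± 0.07 for the WRKY33 match Manes.09G112700 (edgeR adjusted p = 1.7e-11). For the WRKY50 match Manes.16G083400 it was -3.22 ± 0.62. For Manes.03G009500 and Manes.16G128900, both matches of WRKY40, it was -3.16 ± 0.11 and -2.95 ± 0.11, and for the WRKY53 match Manes.05G030900 it was -2.90 ± 0.09. Smaller differences of the same sign were found for the WRKY53 match Manes.01G253400 (-1.88 ± 0.08) and the WRKY50 match Manes.03G051300 (-2.65 ± 0.27). Some genes that had fallen in both lines also stood lower in HOE8. The difference was -2.70 ± 0.29 for the WRKY53 match Manes.01G047200, -2.69 ± 0.30 for the WRKY28 match Manes.15G118300 and -2.53 ± 0.09 for the WRKY3 match Manes.01G100400.

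The 7 members higher in HOE8 than in HOE1 were matches of WRKY14, WRKY70, WRKY18, WRKY35, WRKY21, WRKY4 and WRKY65. The WRKY14 match Manes.06G051300 differed by 1.17 ± 0.14 and the WRKY70 match Manes.09G123700 by 1.11 ± 0.31, the members past 2-fold in this direction; that count of 2 became 1 without HOE1 library 2. The WRKY35 match Manes.05G004300 measured 71.1, 72.5 and 75.2 CPM in WT libraries, 42.1, 44.2 and 45.4 in HOE1, and 76.1, 69.1 and 65.1 in HOE8. Only HOE1 was low here, and HOE8 overlapped WT (-0.73 ± 0.07, edgeR adjusted p = 2.7e-06 in HOE1; -0.06 ± 0.06, edgeR adjusted p = 0.44 in HOE8; 0.68 ± 0.07, edgeR adjusted p = 4.2e-06 between the lines). The other WRKY35 match, Manes.01G228500, rose in both lines (0.98 and 0.39) and was lower in HOE8 than in HOE1. The WRKY21 match Manes.01G200800 was lower than WT in both lines and less so in HOE8, with 50.7 ± 0.689 CPM in WT, 30.3 ± 2.86 in HOE1 and 40.2 ± 2.2 in HOE8, and the lines differed by 0.41 ± 0.07 (edgeR adjusted p = 0.00057). The WRKY65 match Manes.S097400 measured 60.8 ± 2.37 CPM in WT, 41.5 ± 1.95 in HOE1 and 46.4 ± 1.01 in HOE8. Its difference between the lines, 0.16 ± 0.06 (edgeR adjusted p = 0.029), no longer passed without HOE1 library 1 (0.12), HOE1 library 2 (0.17) or HOE8 library 3 (0.16), nor without the filter on low counts or with WT left out of the fit (0.15 in each).

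Genes that share an Arabidopsis match did not always move together. Of 27 matches with at least 2 tested cassava genes, HOE1 showed all tested genes lower in 6, all higher in 4 and both directions in 6; in the other 11 some genes did not pass the test. In HOE8 the same counts were 14, 1, 6 and 6. Of all 85 tested members, 43.5% were lower and 36.5% higher in HOE1, and 71.8% and 15.3% in HOE8. Whether genes with a shared match moved together more than other members was not tested. The match with all tested genes higher in HOE8 was WRKY22. WRKY40, WRKY70, WRKY4, WRKY57, WRKY12 and WRKY18 had genes in both directions there. Genes with the same match may be close copies, and how reads that fit several copies were counted is not given in the sources used here.

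Some members are neighbours in the genome. Within 100000 bases of another member lay 20 members, in 8 neighbourhoods. On chromosome 3, the WRKY40 match Manes.03G009500 starts 6099 bases beyond the WRKY18 match Manes.03G009300, and a WRKY32 match, Manes.03G008900, lies 47052 bases before that. All 3 were lower in HOE8 (log2 fold change -1.55, -0.72 and -1.78), and the first 2 were higher in HOE1. On chromosome 16, Manes.16G128900, Manes.16G129000, Manes.16G129200 and the WRKY32 match Manes.16G129500 all rose in HOE1 (1.20, 1.56, 0.72 and 0.61) and all lay below HOE1 in HOE8 (-2.95, -0.96, -1.17 and -0.84). Against WT, HOE8 differed in sign within this stretch, with 0.60 for Manes.16G129000 and -1.75 for Manes.16G128900. On chromosome 1, Manes.01G252400 and Manes.01G253400, 91056 bases apart, both rose in HOE1 and went opposite ways in HOE8 (1.32 and -0.66).

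Genes known to act with WRKY factors were examined from lists built on Arabidopsis matches or, for VQ proteins, on the description. VQ proteins bind WRKY domains and modulate their activity. Of 37 VQ genes 25 were tested; 15 (60%) were lower and 2 (8%) higher in HOE1, against 32.7% and 31.7% of all genes tested, and the same counts in HOE8 stood against 38.2% and 33.7%. Median log2 fold changes were -0.55 and -1.15. The count of 2 higher in HOE1 became 1 without WT library 3, without any one of the HOE1 libraries, or without HOE8 library 2. The count of 2 higher in HOE8 became 1 without WT library 1, HOE8 library 1 or HOE8 library 2, and 4 without HOE8 library 3. In HOE8 against HOE1, 8 were lower and 3 higher, or 5 higher without HOE8 library 3. Manes.16G132000 measured 21.7, 21.4 and 22 CPM in WT libraries, 4.31, 3.48 and 3.3 in HOE1, and 3.56, 2.87 and 3.96 in HOE8, low in both lines, which overlapped (log2 fold change -2.55 ± 0.13, edgeR adjusted p = 3.2e-08 in HOE1; -2.64 ± 0.14, edgeR adjusted p = 1.1e-08 in HOE8). Manes.13G109800 measured 15.7 ± 1.35 CPM in WT, 5.57 ± 0.924 in HOE1 and 1.92 ± 0.295 in HOE8, and Manes.S089300 measured 18.3 ± 0.369 CPM in WT, 12.5 ± 1.4 in HOE1 and 2.16 ± 0.333 in HOE8. Both were lower than WT in HOE1 and lower than HOE1 in HOE8 (log2 fold change between the lines -1.54 and -2.53).

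In the MAP kinase module, which in Arabidopsis relays pathogen signals to WRKY33 and other members, 18 of 23 genes were tested. In HOE1 7 rose (38.9%) and 6 fell (33.3%), near the 31.7% and 32.7% of all genes tested, and in HOE8 5 rose (27.8%) and 9 fell (50%), against 33.7% and 38.2%. The kinase MPK3 has 1 match, Manes.04G026700, with 227, 230.4 and 232 CPM in WT libraries, 323, 324 and 319 in HOE1, and 55.7, 57 and 55.8 in HOE8. It was highest in HOE1 and lowest in HOE8 with no overlap (log2 fold change 0.49 ± 0.04, edgeR adjusted p = 2.1e-06 in HOE1; -2.03 ± 0.04, edgeR adjusted p = 1.5e-11 in HOE8). The matches of MPK6, which acts beside MPK3, changed less: Manes.01G017300 did not pass the test in either line (0.04 and -0.08) and Manes.05G132100 fell in both (-0.38 and -0.72). These MPK6 matches are named here after their values were seen. Matches of MEKK1, MKK2 and MPK4 differed in direction among themselves. Of 5 tested MEKK1 matches, Manes.07G028800 was higher in both lines, with 2.68 ± 0.389 CPM in WT, 6.13 ± 1.43 in HOE1 and 9.63 ± 1.83 in HOE8, as was Manes.10G112400 (0.45 and 1.02). Manes.10G133100 was lower in both (-0.38 and -0.39), but only just past the threshold (edgeR adjusted p = 0.05 in HOE1, rounded, and 0.046 in HOE8). Of 4 MKK2 matches, Manes.10G112500 was higher in both lines, with 4.74 ± 0.273 CPM in WT, 10.3 ± 0.796 in HOE1 and 12.8 ± 1.3 in HOE8. The MPK4 match Manes.01G058000 was also higher in both (0.27 and 0.71), and 2 of the other 3 MPK4 matches were lower in both. Both matches of MKK5 were lowest in HOE1, unlike MPK3. For Manes.03G097700 the log2 fold change was -1.13 in HOE1, -0.29 in HOE8 and 0.84 in HOE8 against HOE1. For Manes.16G045900 it was -0.80, -0.45 and 0.35, and all of these passed the test. Of these, all but Manes.07G028800 and Manes.10G112500 are named after their values were seen. For Manes.07G028800 and Manes.10G112500 the log2 fold changes were 1.20 and 1.12 in HOE1 and 1.85 and 1.44 in HOE8.

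**Figure D5:**
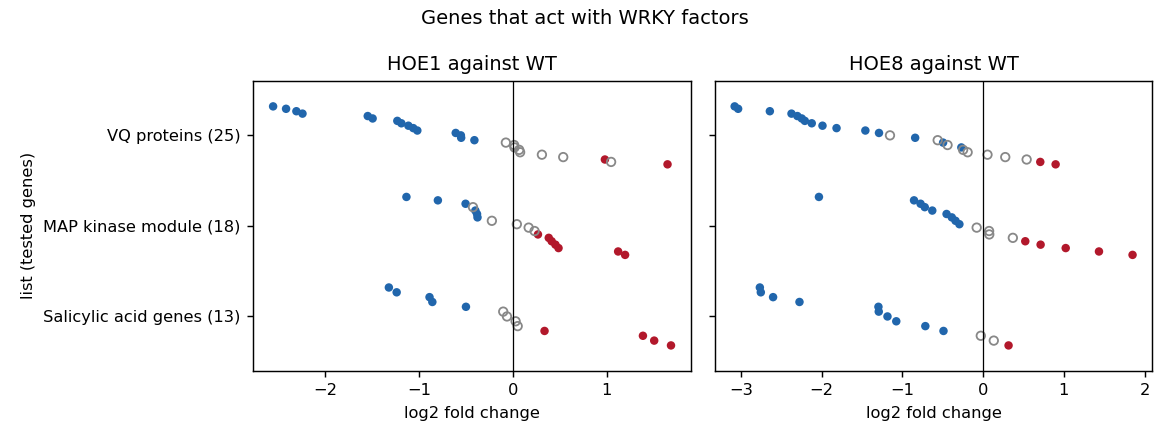
Log2 fold change (horizontal axes, which differ in range) of each tested gene of 3 lists (rows, tested genes in brackets) for HOE1 against WT and HOE8 against WT. Filled points passed an edgeR adjusted p of 0.05 (red higher, blue lower) and open points did not. Of 13 salicylic acid genes, 4 are higher and 5 lower in HOE1, and 1 is higher and 10 lower in HOE8.

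Among genes that regulate salicylic acid synthesis or act in its signalling, 13 of 14 were tested. The synthesis genes sought, ICS1, EDS5 and PBS3, were the best match of no gene, so synthesis itself was not covered. In HOE1 4 rose (30.8%) and 5 fell (38.5%), near the 31.7% and 32.7% of all genes tested, and in HOE8 1 rose (7.69%) and 10 fell (76.9%), against 33.7% and 38.2%. The match of CBP60g, a calmodulin-binding activator of salicylic acid synthesis, is Manes.08G112800, with 35.7, 38.6 and 39.3 CPM in WT libraries, 102.8, 114 and 106 in HOE1, and 5.45, 6.44 and 4.99 in HOE8. It was up in HOE1 and down in HOE8 (log2 fold change 1.51 ± 0.08, edgeR adjusted p = 3.5e-08 in HOE1; -2.75 ± 0.10, edgeR adjusted p = 4.1e-10 in HOE8). SARD1 is a relative of CBP60g with the same role, and its 2 matches, named here after their values were seen, followed the same order. Manes.01G014500 measured 25 ± 0.826 CPM in WT, 80.3 ± 1.86 in HOE1 and 11 ± 1.02 in HOE8, and Manes.S034100 measured 62.4 ± 1.92 CPM in WT, 163 ± 0.502 in HOE1 and 12.9 ± 0.604 in HOE8. The 2 matches of PAD4, a lipase-like protein needed for defence amplification, instead stepped down. Manes.12G147100 measured 133 ± 2.87 CPM in WT, 73.3 ± 0.517 in HOE1 and 21.9 ± 1.72 in HOE8 and Manes.12G159500 measured 128 ± 10.02 CPM in WT, 54.4 ± 15.9 in HOE1 and 18.9 ± 4.37 in HOE8. All of these changes passed the test (log2 fold change -0.86 and -1.24 in HOE1, -2.60 and -2.77 in HOE8). The gene higher in HOE8 was Manes.16G050900, a match of the salicylic acid receptor NPR3 (0.34 in HOE1 and 0.32 in HOE8). It is named here as the only gene of this list that was higher in HOE8. The other NPR3 match, Manes.14G155900, did not pass the test in either line (-0.10 in HOE1 and 0.13 in HOE8).

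The 19 immune and senescence marker genes were matches of SAG12, PR1 and CYP71A13 only, most of them of SAG12. The other markers sought were the best match of no gene. Of the 19 genes, 11 had 0 reads in all libraries, among them all 4 matches of PR1 and several of SAG12, and 1 was tested. This gene, Manes.16G038400, matches the senescence protease SAG12 and measured 500.2, 503 and 515 CPM in WT libraries, 35.6, 41.9 and 37.2 in HOE1, and 0.378, 0.233 and 0.22 in HOE8. It fell in HOE1 (log2 fold change -3.73 ± 0.07, edgeR adjusted p = 1.3e-10) and again in HOE8 (edgeR adjusted p = 1.2e-12 against WT), where 11 reads remained over the 3 libraries, at 3 to 5 in each. By summed reads HOE8 was 1830-fold lower than WT (95% exact counting interval 1020 to 3670) and 138-fold lower than HOE1 (77.1 to 278). These intervals cover counting error only.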

How the data were processed

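Leaf RNA was measured by RNA sequencing in 9 libraries, 3 each of WT, HOE1 and HOE8, grouped by the genotype label; for HOE8 the title and the genotype label number the line differently. The deposited table held whole-number read counts per gene and library, as the authors made them, beside deposited FPKM values, which are that count per gene length and per library total (exact to 1% for 100% of genes with reads). HISAT2 2.0.4 and StringTie 1.3.0 are named per the submitters' processing notes; the build, how reads were counted and the use of strand: not given in the sources used here. RefSeq's gene table paired with 0 of the 33033 identifiers, so names come from the Arabidopsis matches in the deposited table.

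The rule on the description gave 101 members. The test was edgeR 4.0.16 in R 4.3.3 with limma 3.58.1: filter at a minimum count of 10 (23434 genes kept, 9599 removed), TMM scaling, 1 quasi-likelihood fit over all libraries, two-sided, Benjamini-Hochberg adjustment over all genes tested, threshold 0.05. A standard error, given after ± beside a log2 fold change, comes from the fitted weights and moderated dispersion, and is never below counting error; after ± beside a level stands the SD of 3 libraries. The common biological coefficient of variation was 12.1%. In simulated HOE1 and WT libraries of 23093 genes, it recovered 59.7% of 67 true changes of 1.5-fold, 91% of 67 of 2-fold and 100% of 66 of 4-fold, and called 4 of 22893 genes falsely. Only these genes were changed, all averaged at least 1 CPM, and every gene was given the common coefficient of variation. The rates therefore need not hold for fainter or more variable genes, or where most genes change. Alternatives were other size factors, no filter, DESeq2 1.42.0, a replicate block, fits on 2 groups, and leaving out each library.

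Members and lists were chosen with earlier results of these data known. Named members were, per comparison, up to 8 higher and 8 lower past the threshold by fold, of those averaging 1 CPM or more whose libraries did not overlap; the 5 highest by FPKM; and all described as WRKY18, WRKY33, WRKY40, WRKY70 or WRKY75. From each partner list up to 3 genes were named likewise. Members outside these rules are marked in the text as chosen after their values were seen, apart from those named to state a count, a match set or a neighbourhood.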

Additional observations from a re-analysis of the deposited data

Results flagged for a closer look

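Of the 44 members named by rule, 34 passed the edgeR test of HOE8 against HOE1, so their effect against WT differed between the lines. Some of them were named because they passed this same test. The count of 34 and its split by sign are therefore partly fixed in advance. Over all genes tested, 66.5% passed. The values are log2 differences, HOE8 minus HOE1, each past an adjusted p of 0.05. Of these, 7 were positive: 1.17 for Manes.06G051300, 1.11 for Manes.09G123700, 0.84 for Manes.01G045700, 0.68 for Manes.05G004300, 0.41 for Manes.01G200800, 0.35 for Manes.02G049700 and 0.16 for Manes.S097400.

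The other 27 were negative. Among matches of WRKY18 and WRKY40 the differences were -1.13 for Manes.03G009300, -3.16 for Manes.03G009500, -2.95 for Manes.16G128900, -3.26 for Manes.11G066500, -1.23 for Manes.04G102600 and -0.96 for Manes.16G129000. Among matches of WRKY53, WRKY70 and WRKY50 they were -2.90 for Manes.05G030900, -1.88 for Manes.01G253400, -2.70 for Manes.01G047200, -0.91 for Manes.09G016300, -1.29 for Manes.10G002200 and -2.65 for Manes.03G051300. Among matches of WRKY33 and WRKY3 they were -1.55 for Manes.18G098700, -3.21 for Manes.09G112700, -2.39 for Manes.02G189600, -2.53 for Manes.01G100400 and -0.65 for Manes.05G106900. Matches of WRKY75 differed by -2.14 for Manes.06G121200, -1.57 for Manes.12G008700, -2.02 for Manes.13G009100 and -1.21 for Manes.17G102000. Matches of WRKY28, WRKY23 and WRKY6 differed by -2.69 for Manes.15G118300, -1.37 for Manes.17G066200, -0.95 for Manes.05G013500 and -1.21 for Manes.16G004100. The WRKY65 match Manes.17G058900 and the WRKY11 match Manes.16G134800 differed by -1.21 and -1.35.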

How the results depend on the processing

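Counts of WRKY members moved little. Over all alternatives, between 29 and 32 members were higher and 34 to 40 lower in HOE1, 11 to 13 higher and 60 to 63 lower in HOE8, and 6 to 9 higher and 47 to 52 lower in HOE8 against HOE1. The count of members at least 2-fold higher in HOE8 than in HOE1, 2, ran from 1 to 3 when single libraries were left out. Same-numbered libraries did not deviate together over the genes tested (correlations -0.0328 to 0.0365). A small effect shared by same-numbered libraries could be missed in this way, so this does not decide whether the numbers pair them. With the replicate number as a block, 31 members were higher and 37 lower in HOE1, 13 and 61 in HOE8, and 7 and 49 in HOE8 against HOE1. Other size factors moved the median of all genes by at most 0.033 on the log2 scale.

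Small list counts moved, and the cause was not tested. VQ genes higher in HOE1 numbered 1 with DESeq2, without the filter and with the replicate block, and 1 to 2 without single libraries; those higher in HOE8 numbered 1 to 4, and in HOE8 against HOE1 3 to 5, without single libraries. Salicylic acid genes higher in HOE8 than in HOE1 numbered 0 with edgeR and 1 with DESeq2, in the fit of 2 groups and with the replicate block, and 0 to 1 without single libraries. MAP kinase genes lower in HOE1 numbered 6 in the main fit and 5 to 6 without single libraries. Those lower in HOE8 numbered 9 in the main fit and 7 to 9 without single libraries. Under every other alternative these counts were 5 and 8. Without the filter, 2 immune and senescence markers were lower in HOE8 than in HOE1.

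Of 2224 values of 159 named gene results under the alternatives, 2194 kept their sign and side of the threshold, 20 lost the call, 5 gained it and 5 changed sign. The sign changes were near 0: Manes.06G051300 in HOE1 gave -0.03 without WT library 2 and -0.07 without HOE1 library 2, Manes.07G142400 gave -0.03 between the lines without HOE1 library 2, and Manes.16G132000 gave 0.03 between the lines without HOE1 library 1 and again without HOE8 library 2. With single libraries left out, these 3 results spanned -0.07 to 0.07, -0.03 to 0.19 and -0.2 to 0.03. The 16 members below the filter could not be tested at this depth; their highest level in a library was 1.008 CPM.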
